A study of Mus musculus with 4 samples.

Results

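The TNF response of wild-type mouse embryonic fibroblasts (MEFs, cells grown out of mouse embryos) was read from 2 arrays, one of untreated and one of TNF-treated FAN +/+ cells, chosen by their titles from the 4 arrays of the series. Every difference is the TNF-treated array minus the untreated array. Of 18193 genes named by a probe set of their own, 11885 lay above a signal of 77.0, a floor set at the middle of all values, on at least 1 of the 2 arrays, and these form the background for every count. The study set wild-type C57BL/6 MEFs beside MEFs without FAN (FAN -/-), an adaptor protein encoded by Nsmaf that binds a TNF receptor. Wild-type cells were kept in medium with 0% serum for 24 h (untreated), or for 8 h before tumour necrosis factor (TNF) was added at 50 ng/ml for a further 16 h. The FAN -/- cells had the same schedule. RNA was hybridised to Affymetrix Mouse Genome 430 2.0 arrays. Both groups share serum withdrawal, so no culture in serum enters the comparison.

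With 1 array for each condition there is no replicate spread and no test. Sizes are given, and the words higher and lower describe these 2 arrays only. The genotype entry of the TNF-treated wild-type sample reads FAN-deficient and contradicts its title, and that of the untreated FAN -/- sample reads wild type. Signals of Nsmaf were 496 and 376 on the arrays titled wild type (untreated, TNF) and 240 and 179 on those titled FAN-deficient, so the lower pair follows the titles. If the probes lie outside the deletion, this says nothing about the labels. Paired by title, 25 genes were at least 4-fold apart between both arrays of a title genotype and both of the other. Examples, picked for their size, were the matrix gene Lum (6876 and 10978 against 438 and 175) and the Wnt antagonist Sfrp2 (14214 and 8375 against 207 and 120). Pairing by the genotype entry sets both untreated arrays against both TNF arrays and gave 17 genes at least 4-fold apart. The remaining pairing gave 0. Pairing by title does not show which pair is the wild type. The labels do not state how many embryo preparations the cells came from. The 2 wild-type arrays had medians of 6.21 and 6.27 on the deposited log2 scale, and 49.2% and 50.0% of their probe sets exceeded the floor. The ratio of 3' to 5' Gapdh control signal, a measure of RNA integrity, was 1.09 and 1.04.

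TNF binds TNF receptor 1 on fibroblasts, where a complex of adaptors, ubiquitin ligases and kinases releases NF-kB dimers from their inhibitors. NF-kB then switches on chemokines, cytokines, adhesion molecules and its own inhibitors. Fibroblasts treated with TNF are known for recruiting leukocytes and for secreting enzymes that degrade matrix. Hours into the response, interferon regulatory factors add a further layer of genes.

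NF-kB sites are known close to the start of some of these genes, which makes the promoters worth reading beside the values. The 250 bases before the annotated start are printed for the 5 genes of largest difference among those described here that hold a match to GGANNTTCC, the core shared by many NF-kB sites. Of 115 named genes higher with TNF, 84 had such a window and 13 held a counted match. Matches on a single chromosome that was set aside were neither printed nor counted, though the 84 can include its genes. The 5 printed were thus selected for the match. Capitals mark the match, read on either strand, and sequences are RefSeq's (build GRCm38.p6), given 5′ to 3′ on the strand of the gene. They are Cxcl2 (chr5:90903649-90903898, plus strand), Cxcl10 (chr5:92348890-92349139, minus), Il6 (chr5:30012864-30013113, plus), Cxcl3 (chr5:90785851-90786100, plus) and Nfkbie (chr17:45555450-45555699, plus).
Cxcl2: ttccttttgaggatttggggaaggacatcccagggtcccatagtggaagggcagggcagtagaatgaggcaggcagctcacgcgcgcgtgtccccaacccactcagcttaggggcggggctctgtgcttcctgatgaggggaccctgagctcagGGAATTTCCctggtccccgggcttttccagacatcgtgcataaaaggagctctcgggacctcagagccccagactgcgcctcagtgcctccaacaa
Cxcl10: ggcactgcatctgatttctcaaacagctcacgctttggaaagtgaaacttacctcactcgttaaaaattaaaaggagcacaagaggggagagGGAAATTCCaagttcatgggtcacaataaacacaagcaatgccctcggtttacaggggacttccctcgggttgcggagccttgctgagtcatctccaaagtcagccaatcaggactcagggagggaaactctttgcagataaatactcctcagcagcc
Il6: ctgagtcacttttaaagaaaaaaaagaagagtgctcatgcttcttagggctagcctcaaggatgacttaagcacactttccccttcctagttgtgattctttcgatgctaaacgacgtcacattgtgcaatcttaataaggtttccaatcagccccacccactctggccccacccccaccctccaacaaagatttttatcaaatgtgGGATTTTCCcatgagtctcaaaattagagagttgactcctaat
Cxcl3: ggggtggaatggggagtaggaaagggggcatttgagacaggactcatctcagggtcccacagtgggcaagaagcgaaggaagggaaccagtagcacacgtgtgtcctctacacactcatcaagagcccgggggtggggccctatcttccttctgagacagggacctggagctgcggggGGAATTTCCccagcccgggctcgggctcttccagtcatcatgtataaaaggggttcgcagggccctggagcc
Nfkbie: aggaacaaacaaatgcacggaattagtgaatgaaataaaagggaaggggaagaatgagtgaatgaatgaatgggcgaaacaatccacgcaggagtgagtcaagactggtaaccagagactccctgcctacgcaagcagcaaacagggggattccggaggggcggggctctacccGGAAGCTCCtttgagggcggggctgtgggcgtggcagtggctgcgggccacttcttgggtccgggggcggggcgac
The first base of each match lay 96 bases before the start in Cxcl2, 158 in Cxcl10, 43 in Il6, 72 in Cxcl3 and 76 in Nfkbie. The Cxcl10 window also holds 1 match to GAAANNGAA, the core of interferon response elements. A match is a description of the letters and does not show that a factor binds there.

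In all, 269 genes (2.26% of the background) were at least 2-fold higher with TNF and 235 (1.98%) at least 2-fold lower. The difference was under 1.5-fold for 88.4% of genes, with a median of -0.04 log2 and a range from -0.68 to 0.57 between the 5th and 95th percentiles. Of all 11885 genes 56.9% were lower and 43.1% higher by some amount, the shares beside which such counts of a list stand. Counts of list members at least 2-fold higher or lower stand beside the 2.26% and 1.98%. The higher side reached further, with 59 genes past 4-fold and 25 past 8-fold, against 29 and 2 on the lower side. Signals and differences of a gene come from its probe set of highest mean, so levels are not set against each other between genes. Pairs of signals give the untreated array first and the TNF array second, and single values for a gene are log2 differences unless said otherwise. Among 133 of the higher genes with a second probe set above the floor, the second had the same sign for 132 and was itself 2-fold higher for 88. Among 90 such lower genes the second had the same sign for 86 and was 2-fold lower for 42.

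**Figure D1:**
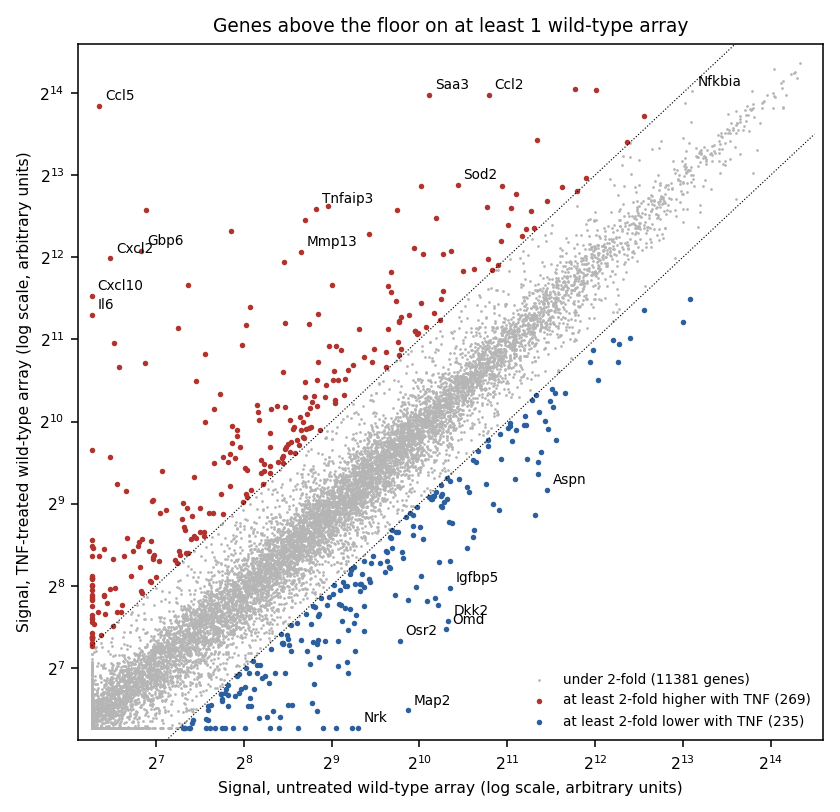
Signal of each of the 11885 genes on the untreated (horizontal) and the TNF-treated (vertical) wild-type array, both on log scales in arbitrary units with values under the floor of 77.0 drawn at it. Dotted lines mark 2-fold, red points are the 269 higher and blue points the 235 lower genes, and the red points lie up to 180-fold off the diagonal while the blue ones lie up to 10.5-fold off it.

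The largest difference was in Ccl5, a chemokine that draws T cells and monocytes, whose signal was 81.8 untreated and 14699 with TNF, 180-fold higher. Ccl20, a chemokine for dendritic and T cells, stood at 118 and 6091, and Cxcl2, a neutrophil chemokine, at 89.1 and 4058. Cxcl10, an interferon-inducible chemokine, had an untreated signal of 76.4, below the floor, and 2947 with TNF, at least 38.3-fold higher. All 4 genes were at or near the floor on the untreated array and far above it on the TNF array. Of 11 CC chemokines above the floor (16 were on the array), 6 were at least 2-fold higher, 0 lower, and the median difference was 2.50 log2. Ccl2, the main monocyte chemokine, started from a high signal of 1771 and reached 16133, 9.11-fold. Its relative Ccl7 stood at 1036 and 7456, and Ccl9 at 92.0 and 1991, with log2 differences of 2.85 and 4.44. Ccl8 differed by 2.50 log2. The CC chemokines not in this group sat at the floor or moved little, down to Ccl27a at -0.50 log2.

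Of 13 CXC and CX3C chemokines above the floor, 5 were at least 2-fold higher and 0 lower, with a median of 0.55 log2. Cxcl3, another neutrophil chemokine, had signals of 152 and 2252 (3.89 log2), and Cxcl16, a transmembrane chemokine and scavenger receptor, 252 and 1948 (2.95 log2). Cx3cl1, fractalkine, stood at 851 and 2821. Other chemokines had high signals already without TNF. Cxcl1, at 8725 untreated, was 0.55 log2 higher, and Cxcl5, at 5457, was 0.61 log2 higher, each under 2-fold. In the FAN-deficient arrays, where untreated Cxcl1 gave 1173, its difference was 2.88 log2. Cxcl12, which retains progenitor cells, differed by -0.12 log2 on the wild-type arrays, and Cxcl15, annotated as a lung chemokine, by -0.92 log2.

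NF-kB switches on its own inhibitors, and many of these were higher on the TNF array. Of 13 inhibitors and feedback regulators above the floor, 8 were at least 2-fold higher and 0 lower, with a median of 1.32 log2 beside -0.04 over all genes. Nfkbie, an inhibitor that holds NF-kB in the cytoplasm, had signals of 117 and 1686, and Tnfaip3, the ubiquitin-editing enzyme A20, 454 and 6170. These are 14.4-fold and 13.6-fold higher, and the second probe sets gave 3.14 and 3.45 log2. Tnip1, a partner of A20, stood at 1051 and 4209, and Tnfaip2 at 1171 and 5708. Bcl3, an atypical nuclear inhibitor, was 1.65 log2 higher and Zc3h12a, an RNase that degrades cytokine transcripts, 1.59. The remaining higher members, Nfkbib and Nfkbiz, were 1.17 and 1.32. Their other probe sets gave 0.00 for Nfkbib and from -0.39 to 1.68 for Nfkbiz. Nfkbia, the classical inhibitor, had a high untreated signal of 8787 and 16630 with TNF, 0.92 log2 on this probe set and 1.12 to 2.34 log2 on its 4 others. Cyld and Otud7b, deubiquitinases that restrain the pathway, differed by 0.30 and -0.14 log2.

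Of 12 NF-kB subunits and kinases above the floor, 4 were at least 2-fold higher and 0 lower. Relb, a subunit of the noncanonical branch, had signals of 415 and 1427, and its partner Nfkb2 485 and 1265 (1.78 and 1.38 log2). The other higher genes were the kinases Map3k8 (at least 1.74 log2, from an untreated signal under the floor) and Ikbke (1.25 log2). Rela, the main activating subunit, was 0.85 log2 higher, and the kinase subunits Ikbkb and Ikbkg differed by 0.20 and 0.01 log2. At the receptor, 4 of 18 genes were 2-fold higher. These were Birc3 and Birc2, ubiquitin ligases of the receptor complex (2.73 and 1.46 log2), Fas, a death receptor (1.81), and Mlkl, the effector of necroptosis (1.04). The second probe set of Birc3 gave only 0.36 log2. Tnfrsf1a, which encodes TNF receptor 1, had nearly the same signal on both arrays, 3248 and 3034, and Tnfrsf1b, TNF receptor 2, was 0.63 log2 higher.

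Among cytokines, 6 of 16 genes above the floor were at least 2-fold higher and 0 lower. Il6 had an untreated signal of 48.6, below the floor, and 2520 with TNF, at least 32.7-fold higher. Lif, a cytokine of the same family, had 261 and 2309 (3.15 log2), though its second probe set gave 0.68 log2. Tslp, an epithelial and stromal cytokine, differed by 1.46 log2 and Tnfsf11, the osteoclast differentiation ligand RANKL, by at least 2.10 log2 from an untreated signal below the floor, against 0.57 on its other probe set. The colony-stimulating factors Csf2 and Csf3 stood under and just above the floor untreated and were at least 1.09 and about 1.02 log2 higher (Csf3 between 0.00 and 0.97 in 4 of the processing alternatives), while the abundant Csf1 was 0.91. With only members above the floor on both arrays, the cytokine count was 3. All 19 cytokine receptors above the floor were higher by some amount (43.1% of all genes were), and 6 passed 2-fold, with a median of 0.79 log2. Il1rap, the shared chain of interleukin-1 receptors, had 289 and 1038, and the interleukin-13 chains Il13ra1 and Il13ra2 were 1.41 and 1.69 log2 higher. Both chains of the interferon-gamma receptor were just past 2-fold, Ifngr1 at 1.05 and Ifngr2 at 1.22 log2. Il6st, the signalling chain of the interleukin-6 family, differed by 0.09.

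Several sensors of microbial products were higher. Tlr2 had 270 untreated and 2696 with TNF, 3.32 log2, and Tlr3, which senses double-stranded RNA, was 1.28. In the list of Toll-like receptors and adaptors 5 of 15 were 2-fold higher and 0 lower, with Cd14, a co-receptor, at 1.17, Nod1, a cytoplasmic sensor, at 1.13 and Irak3, an inhibitory kinase, at 1.38 log2. Tlr4, the receptor for lipopolysaccharide, differed by 0.44.

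Interferon-inducible genes were the next group. Of 10 interferon-inducible GTPases above the floor, 7 were at least 2-fold higher, 0 lower, and the median was 2.38 log2. Gbp6 had 114 and 4326, Gbp2 415 and 5599, and Ifi47 188 and 1808. These GTPases act against intracellular pathogens. Gbp3 went from 51.9, below the floor, to 802, at least 10.4-fold. Gbp7, Gbp3 and Gbp2 were consecutive on chromosome 3 among the genes above the floor, and Parp14, Dtx3l and Parp9 on chromosome 16. Probe sets of such families can also hybridise to transcripts of close relatives, so a single member's value is uncertain. Of 23 antiviral effectors and RNA sensors, 9 were 2-fold higher, among them Parp14 (2.33 log2), Ifit1 (1.98), Xaf1 (1.36) and Bst2, which tethers budding virions (1.19). Not all of this list was higher: Ifit3 differed by -0.02 and Ifit2 by -0.63 log2. Among interferon signalling factors 3 of 17 were 2-fold higher, namely Irf1 with 883 and 2465, the kinase Jak2 (1.49) and Usp18, a brake on interferon receptors (1.44). Stat2 and Irf9, components of the complex that type I interferon activates, differed by 0.03 and 0.13.

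Antigen presentation genes had 9 of 15 members at least 2-fold higher, 0 lower and a median of 1.24 log2. The 3 inducible proteasome subunits Psmb8, Psmb9 and Psmb10 had 203 and 1138, 112 and 370, and 430 and 2333. Of 24 constitutive proteasome genes 0 reached 2-fold, 23 stayed under 1.5-fold and the median was 0.11 log2. The subunits that the inducible ones replace, Psmb5, Psmb6 and Psmb7, differed by 0.12, 0.08 and 0.06. H2-K1, a class I heavy chain, had 2594 and 11042, and Erap1 and Tapbp, which trim and load peptides, were 1.89 and 1.56 log2 higher. B2m, the invariant light chain, was already bright and differed by 0.24. Tap1, a chain of the peptide transporter, differed by 0.28 and Tap2 by 0.70.

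Secreted defence and metal-handling proteins formed a further group. Of 17 acute phase and iron or zinc genes, 11 were at least 2-fold higher and 0 lower, median 1.19 log2. Saa3, a serum amyloid made by stromal cells, had 1105 and 16155, and Hp, haptoglobin, 176 and 1442. Steap4, a metalloreductase, had 856 and 6110. Lcn2, which binds bacterial iron carriers, was 1.94 log2 higher, Cp, ceruloplasmin, 2.01, and Mt2, a metallothionein, 2.27. Slc40a1, the iron exporter, was the lowest of the list at -0.88. The soluble pattern receptor Ptx3 had 5401 and 10785 by its main probe set, just short of 2-fold, and a difference of -0.44 log2 by the other. Of 10 complement genes Cfb alone passed 2-fold (95.3 and 1628, 17.1-fold), with C1s1 at 0.87 log2.

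**Figure D2:**
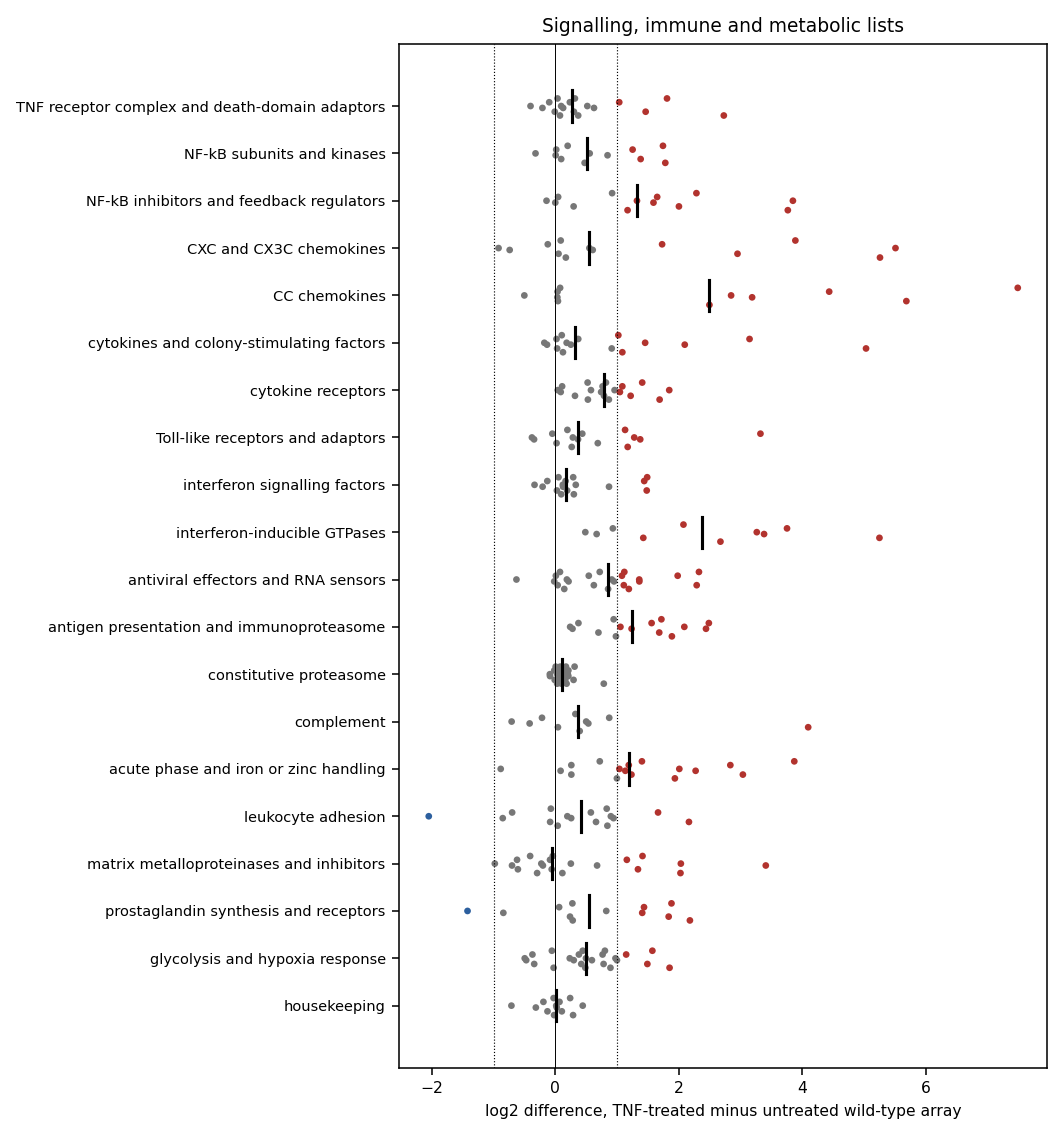
Log2 difference, TNF-treated minus untreated wild-type array, for each member above the floor of 20 gene lists, with the list median as a black bar. Dotted lines mark 2-fold, red and blue points lie beyond them, and the medians run from -0.05 for matrix metalloproteinases and inhibitors to 2.50 for CC chemokines while the constitutive proteasome stays at 0.11 and housekeeping genes at 0.02.

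Leukocyte adhesion genes were mixed. Icam1 had 985 and 4417 and Vcam1 2203 and 6981, the ligands of leukocyte integrins, both above 2-fold. Alcam, a homophilic adhesion molecule, was -2.05 log2, with its 3 other probe sets between -2.27 and -2.01. Among metalloproteinases and inhibitors 6 of 20 were 2-fold higher, 0 lower, and the median was -0.05. Mmp13, a collagenase, had 403 and 4275 (10.6-fold), and Mmp3, stromelysin, 4135 and 16852. Mmp13, Mmp3 and Mmp10 (1.34 log2) stood in a row on chromosome 9 among genes above the floor. Timp1, an inhibitor of these enzymes, was 1.16 higher, while Timp2 and Timp3 differed by -0.20 and -0.41. The constitutive gelatinase Mmp2 differed by 0.11, and Adamts1 by -0.98.

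The enzymes on the way to prostaglandin E2 had higher signals with TNF. Pla2g4a, which releases arachidonic acid, was 0.83 log2, Ptgs2, cyclooxygenase 2, had 1752 and 6256, and Ptges, the terminal synthase, 460 and 1695. Hpgd, the enzyme that inactivates prostaglandins, was lower at -1.42 log2. That probe set has an _s_at suffix and, like those with _x_at, can hybridise to several transcripts. The other probe set of Hpgd lay under the floor on both arrays, so leaving such probe sets out gave no measure of Hpgd. Of the list's 12 genes 5 were at least 2-fold higher and 1 lower, and the receptors Ptgfr, Ptger4 and Ptgir were among the higher ones at 2.18, 1.44 and 1.41. Ch25h, which makes 25-hydroxycholesterol, had 232 and 5104, and Cyp7b1, which converts oxysterols further, was 2.46 log2. Meanwhile Apoe, a lipid carrier, was -1.75 and Mylip, which degrades lipoprotein receptors, -1.35. Sterol and fatty acid synthesis showed no gene at 2-fold among 24, and all 24 stayed under 1.5-fold. Of 23 sphingolipid genes 22 stayed under 1.5-fold, and only Ugcg, which makes glucosylceramide, passed 2-fold (1036 and 2787). Smpd2, a neutral sphingomyelinase gene, differed by -0.23 log2.

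Mitochondrial Sod2 had 1385 and 7564 (5.46-fold), and Gch1, the entry enzyme of tetrahydrobiopterin synthesis, 189 and 1019. Cytoplasmic Sod1 differed by -0.34 log2. Glycolysis and hypoxia genes were higher in 18 of 24 cases (43.1% of all genes were), with a median of 0.49 log2. At least 2-fold higher were 4 of them, beside 2.26% of all genes. Hk2, which phosphorylates glucose, had 317 and 1142, Pfkl, a phosphofructokinase, was 1.15 and Hif1a 0.80 log2. Pfkfb3 gave at least 1.57 on its main probe set and 0.09 on the other. Counting only members above the floor on both arrays, 2 passed 2-fold. In cell survival, Casp4, an inflammatory caspase, was 2.16 and Bid, a link from death receptors to mitochondria, 1.87, while the survival factor Mcl1 was -0.49. Growth factors split: Ereg, an EGF receptor ligand, had 819 and 3611 and Vegfc was 1.57, while Fgf18 went from 392 to 54.5, below the floor, at least 5.09-fold lower.

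**Figure D3:**
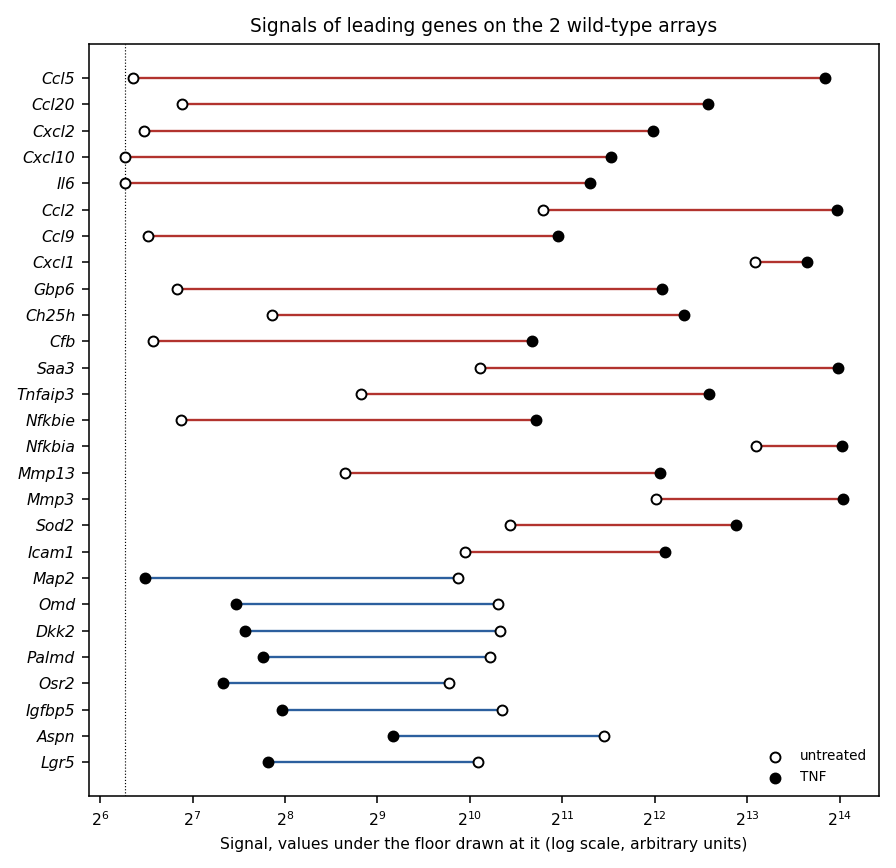
Signals of 27 genes named in the text on the untreated (open circles) and TNF-treated (filled circles) wild-type arrays, on a log scale in arbitrary units with the floor of 77.0 dotted. Red lines join genes higher with TNF and blue lines genes lower with TNF. Cxcl10 and Il6 start at the floor, while Cxcl1 and Nfkbia start near the top of the range and differ by 0.55 and 0.92 log2.

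The lower side included matrix, patterning and growth-control genes. Among genes above the floor on both arrays the lowest was Map2, a microtubule-binding protein, with 937 untreated and 89.3 with TNF, 10.5-fold lower, although its second probe set gave -0.66 log2. Of 9 small leucine-rich proteoglycans, 3 were at least 2-fold lower: Omd with 1264 and 177, Aspn with 2800 and 574, and Ogn with 8237 and 2381. These 3 were consecutive on chromosome 13 among genes above the floor. Others of the family went the opposite way, Lum at 0.67 and Dcn at 0.66 log2, and Bgn barely differed at -0.07. The main collagens were close to level, Col1a1 at -0.20, Col1a2 at -0.11 and Col3a1 at -0.10, while Col8a2 and Col11a1, minor matrix collagens, were -2.01 and -1.25 and Col5a3 was 1.77. In the elastic fibre list 12 of 16 were lower by some amount, beside 56.9% of all genes. At least 2-fold lower were 3: Eln, elastin, at 465 and 140, and the microfibril proteins Mfap2 and Mfap4 at -1.24 and -1.23. Second probe sets gave -0.56 for Eln and -0.55 for Mfap2, and Mfap4 was -0.67 with a floor at the 70th percentile.

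Wnt signalling genes were lower in 23 of 27 cases, beside 56.9% of all genes, with a median of -0.41 log2. At least 2-fold lower were 4, beside 1.98% of all genes. Dkk2, a secreted antagonist, had 1279 and 190 and Fzd4, a receptor, 540 and 131. Wnt2, a ligand, had 167 and 46.4, the second below the floor, and Ror1, a receptor, was -1.02. In 4 of the processing alternatives Ror1 lay between -0.96 and -0.24. Lgr5, a receptor that amplifies Wnt signals, had 1092 and 226. Of 15 IGF axis genes 13 were lower by some amount, beside 56.9% of all genes. Igf2 had 2338 and 995, and Igfbp5, a binding protein, 1303 and 251 by a probe set whose counterpart gave -0.16 log2, while Igfbp3 was 1.09 log2 higher. In the TGF-beta and BMP list, Id1 and Id4, inhibitors of differentiation induced by BMP, were -1.69 and -1.71, Id2 and Id3 were -0.56 and -0.72, and the ligands Tgfb2 and Tgfb3 were -1.02 and -0.93.

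Several transcription factors of limb and mesenchyme were lower: Osr2 with 875 and 161, Osr1 with 2616 and 727, and Msx1 with 1915 and 484. In that list of 26 genes 4 were 2-fold lower and 0 higher, beside 1.98% and 2.26% of all genes. Of 20 Hox genes 15 were lower by some amount, beside 56.9% of all genes, but only Hoxd10 and Hoxd13 passed 2-fold, at -1.11 and -1.07. Among guidance genes 6 of 29 were 2-fold lower and 2 higher, beside 1.98% and 2.26% of all genes. The lower ones included the semaphorins Sema3a (-1.43), Sema3e (-1.33) and Sema3d (-1.20), and the higher ones were Nrp2 and Ntn1, a semaphorin receptor and a netrin, at 1.48 and 1.18. Other probe sets gave 0.14 to 1.19 for Nrp2 and only 0.43 for Ntn1. At their weakest, those of Sema3a, Sema3e and Sema3d gave -0.71, -0.83 and -0.83. Actin and smooth-muscle genes were lower in 19 of 25 cases (56.9% of all genes were). Palmd had 1187 and 217 and Lmcd1 2544 and 466, whereas the smooth-muscle actin Acta2 differed by 0.07. Fosb had 1832 and 511 and Fos 12456 and 6677, while Fosl1, a related AP-1 subunit, was 1.37 log2 higher.

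Cell cycle genes were lower by small amounts. Of 25 DNA replication genes 23 were lower by some amount with a median of -0.32 log2, and of 25 mitosis genes 23 with a median of -0.58. Beside these counts, 56.9% of all genes were lower. Only 1 replication gene and 2 mitosis genes reached 2-fold. Rrm2, which makes deoxynucleotides, had 1278 and 634, and Mki67 and Cenpf, proliferation markers, 441 and 216, and 215 and 103. None of these stayed 2-fold lower in every processing alternative. Rrm2 lay between -0.99 and -0.62 log2 in 4 of them. Cenpf lay between -0.96 and 0.00 in 3, and Mki67 between -0.98 and -0.94 in 3. The cell cycle inhibitor Cdkn1c was also lower, 1195 and 312, and the kinase Cdk6 was 1.37 log2 higher. In bulk RNA, fewer cells of a type and less RNA per cell cannot be told apart. On the FAN-deficient arrays the medians of these 2 lists were 0.01 and 0.00, with 2 and 9 members at the floor on both of those arrays. Over the 22 replication and 12 mitosis genes above the floor on all 4 arrays, the medians were -0.31 and -0.59 in wild-type and 0.01 and -0.03 in FAN-deficient cells.

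Other genes at the extremes fell outside the lists. U90926 had 165 and 3238 (4.30 log2), and C730049O14Rik went from 71.9, below the floor, to 358. On the lower side Nrk, a kinase, went from 629 to 66.0, below the floor and at least 8.17-fold lower, with -0.61 log2 on its other probe set. Ddx4, known as a germ-cell RNA helicase, went from 477 to 29.1 (at least 6.19-fold lower, and 16.4-fold as deposited), and Lrrn3, a membrane protein with leucine-rich repeats, from 531 to 68.4, both ending below the floor. Ndnf, a secreted neurotrophic factor, had 1156 and 231, and Mef2c, a muscle and mesenchyme transcription factor, 581 and 122. The 4 other probe sets of Mef2c ranged from -1.81 to -0.12 log2.

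Each of the other lists held few genes past 2-fold. Over all genes the shares were 2.26% higher and 1.98% lower. Of 12 adipogenic and lipid droplet genes 2 were lower, Plin4, a coat protein of lipid droplets (-2.11 log2), and Ppp1r3c, which targets a phosphatase to glycogen (from 603 to 62.1, below the floor). The other probe set of Ppp1r3c gave -0.77 log2. Of 14 cartilage and bone genes 1 was lower, Comp, an oligomeric cartilage matrix protein, with 1950 and 743. Of 17 p53 targets 13 were lower by some amount (56.9% of all genes were) but none by 2-fold, and 1, the kinase Plk2, was higher at 1.01. Among 19 integrins and cadherins Itgb8 was 2-fold higher (1.16) and Itga8 lower (-1.39). Of 21 matricellular and adhesive glycoproteins only Has2, a hyaluronan synthase, passed 2-fold, with 85.4 and 202 by a probe set whose counterpart gave 0.51 log2 (0.88 with the mean of both), and Sparc, a major matrix glycoprotein, differed by 0.01. Of 14 plasminogen activators and lysosomal proteases Ctsc, a lysosomal peptidase, was 1.44 higher, its other probe sets lying under the floor on both arrays. With the mean of all its probe sets Ctsc fell under the floor on both arrays, so that setting gave no direction. Cathepsins Ctsb and Ctsd differed by 0.00 and -0.07.

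**Figure D4:**
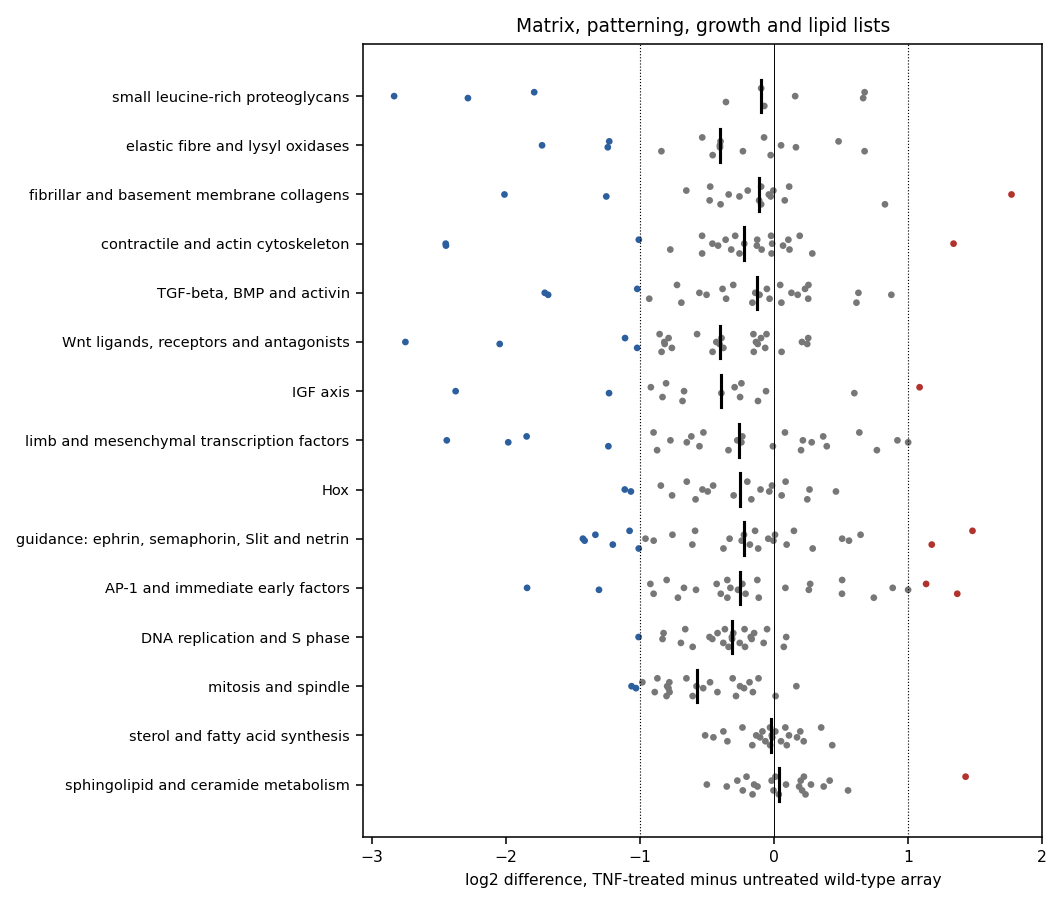
Log2 difference with TNF on the wild-type arrays for each member above the floor of 15 lists of matrix, patterning, growth and lipid genes, with list medians as black bars and 2-fold as dotted lines. Mitosis and Wnt genes have medians of -0.58 and -0.41 with most members left of 0, while sterol and sphingolipid genes cluster around it.

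The promoter table held windows for 206 of the 2-fold higher and 178 of the 2-fold lower genes, and 9616 genes above the floor in all. GGANNTTCC, searched on both strands, occurred for 8.74% of the higher, 2.25% of the lower and 4.53% of all these genes, and in 3.59% of all 32851 windows of the same length in the table. Among the 42 genes at least 4-fold higher it occurred for 9, or 21.4%. GAAANNGAA occurred for 12.1% of higher, 5.62% of lower and 7.15% of all genes above the floor, and in 7.13% of all windows. CCAAT, a core promoter element bound by NF-Y, occurred for 39.3%, 51.1% and 40.1%, with 33.8% of all windows, and TTTGAA, a core of cell cycle elements, for 13.6%, 17.4% and 12.6%, with 16.0%. Matches of the first 2 motifs shared bases in 12 of all windows. A gene with several annotated starts counted as holding a match when any of its windows did.

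The 15 fibroblast markers were all above the floor and none was 2-fold apart, with Col1a1 at 18563 and 16191 and Col3a1 at 16939 and 15834. Of 16 macrophage and leukocyte markers measured, 8 were above the floor, with signals of 78.8 to 381, 2 were 2-fold higher (Cd14 and Csf1r) and the median of the 8 was 0.25 log2. The other probe sets of Csf1r gave 0.14 and 0.33, and with a floor at the 70th percentile Cd14 was 0.73 and Csf1r 0.00. Ptprc, Itgam, Cd68 and Adgre1, defining leukocyte and macrophage genes, were below the floor on both arrays, Ptprc at 16.4 and 16.8. Endothelial (5 of 11), epithelial (7 of 12), skeletal muscle (2 of 10) and neuronal or glial markers (7 of 12) had 0 members 2-fold higher and 3 lower in all, Acta1, Sox2 and Map2. The part of such cells in the differences was not tested.

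On the 2 FAN-deficient arrays, which share no array with the wild-type pair, 249 of the 269 higher and 208 of the 235 lower genes had the same sign. Of the higher genes 123, and of the lower 69, were also 2-fold apart the same way. At the floor on both FAN-deficient arrays, and so without a direction there, were 12 of the higher and 22 of the lower genes. The opposite sign was seen for 8 and 5. Over all 11885 genes, 51.1% were higher and 46.3% lower by some amount on those arrays, and 1.39% and 1.08% were 2-fold higher and lower. The median difference there was 0.89 log2 for the higher and -0.68 for the lower genes, beside 1.44 and -1.28 on the wild-type arrays. The genes were picked for their size on the wild-type arrays, so smaller values on other arrays do not by themselves show a weaker response. Some genes were close in both genotypes, such as Tnfaip3 (3.77 wild type, 3.88 FAN-deficient), Nfkbie (3.85 and 3.91) and Icam1 (2.16 and 2.14). Mmp3 was further apart, at 2.03 and 5.16. Il6 was at least 5.03 and at least 1.93, with untreated signals under the floor in both genotypes, and 5.70 and 3.01 as deposited. Gbp6 was 5.25 and at least 1.90, or 2.74 as deposited in FAN-deficient cells. With 1 array for each condition, no difference between the genotypes can be tested.

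**Figure D5:**
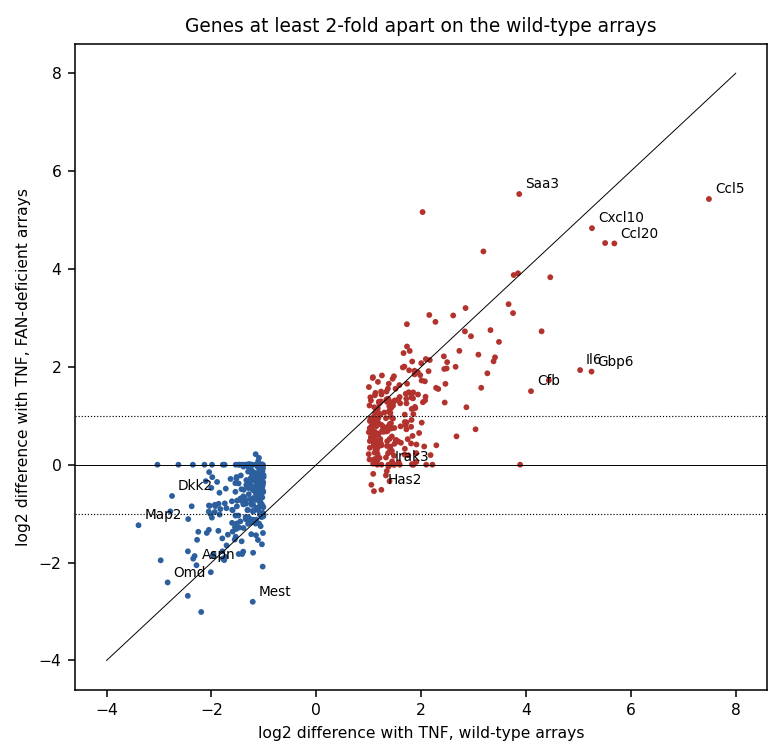
Log2 difference with TNF on the FAN-deficient arrays (vertical) against that on the wild-type arrays (horizontal) for the 504 genes at least 2-fold apart on the wild-type arrays, red where higher and blue where lower. The diagonal marks equal differences and dotted lines 2-fold on the FAN-deficient arrays, where 123 red and 69 blue points lie beyond them on the same side.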

How the data were processed

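The deposited values are log2 signals of 45101 probe sets on 4 arrays, per the series' value table; the submitters' processing notes name MAS5, with no version, and the summary and normalization steps are otherwise not given in the sources used here. Both wild-type arrays were used as deposited, since trimmed means (2% trimmed) of all 4 arrays differed by 2.94%, under a limit of 5%. Of the probe sets, 34945 name 1 gene, 932 several and 9160 none, and 64 are controls. Each gene was its probe set of highest mean over the 4 arrays. A floor at the 50th percentile of values (77.0, or 6.27 log2) was put under all signals before differences were taken, so a gene at the floor on one array gives a bound. No depth applies to arrays, and the single array for each condition limits the precision: no test was made.

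Named genes are the 12 highest and 12 lowest genes above the floor on both arrays with all further probe sets of the same sign, the 5 largest bounds each way, members of 52 gene lists (those of largest difference at 2-fold or more, of highest signal, and the extremes) and fixed TNF targets. Further list members were added with their values in view. The members and lists were chosen with earlier results of these data known, so no list was tested. Gene order and promoters come from RefSeq (GRCm38.p6). Computation used Python 3.11.15 with numpy 2.4.6 and pandas 2.3.3. Alternatives were other floors, none, other scalings and other choices of probe set.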

Additional observations from a re-analysis of the deposited data

Results flagged for a closer look

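A few genes 2-fold apart on the wild-type arrays had the opposite sign on the FAN-deficient arrays, a difference that was not tested. Irak3, an inhibitory kinase of Toll-like receptor signalling, was 1.38 log2 in wild-type and -0.04 in FAN-deficient cells. Has2, a hyaluronan synthase, was 1.24 and -0.51, but its second probe set gave 0.51 in wild-type cells, and 0.88 was left with the mean of both and 0.00 with a floor at the 70th percentile. Csf1r, the receptor for colony-stimulating factor 1, was 1.09 and -0.19, but its other probe sets gave 0.14 and 0.33, and the wild-type value lay between 0.00 and 0.97 in 3 alternatives. Mki67, a proliferation marker, was -1.03 in wild-type cells, under 2-fold in 3 alternatives. Its FAN-deficient signals, 68.3 and 77.4, lay at the floor of 77.0, so the 0.01 there has no direction.

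Probe sets that name no gene, or several, entered no comparison. Of 2037 unnamed probe sets above the floor, 39 (1.915%) were at least 2-fold higher with TNF on the wild-type arrays and 16 (0.785%) lower. Of 571 naming several genes, 13 (2.277%) were higher and 8 (1.401%) lower. Among probe sets naming 1 gene, 2.115% were higher and 1.601% lower. The higher shares of both groups thus lay close to that of the probe sets naming 1 gene.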

How the results depend on the processing

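Over the 8 alternatives the count of genes at least 2-fold higher ran from 190 to 302 and of those lower from 154 to 273. With the floor at the 70th percentile 154 genes were lower, a change of more than 1.5 times from 235. In that setting 3 cytokines, 3 metalloproteinases and inhibitors, 3 prostaglandin genes and 2 glycolysis and hypoxia genes were higher and 2 Wnt genes lower. With the mean of all probe sets 2 Wnt genes and 2 limb transcription factors were lower and 2 glycolysis and hypoxia genes higher. Counting only members above the floor on both arrays, an alternative chosen after seeing the data, left 3 cytokines and 2 glycolysis and hypoxia genes higher. In these cases the cause was not tested. Of 171 named genes at least 2-fold apart, 112 were so under each of the 8 alternatives that gave them a value, and 0 changed sign. Among named genes no longer 2-fold apart with the mean of all probe sets were Map2 (-0.79 log2), Osr2 (-0.72), Nrk (-0.86), Fzd4 (-0.95) and Ctsc (0.00), and without _x_at and _s_at probe sets Igfbp5 (-0.16), Hpgd (0.00) and Angptl4 (0.00). The 0.00 of Ctsc, Hpgd and Angptl4 arose because the values compared lay under the floor on both arrays, so it gives no direction. Centring the arrays on their medians turned the share of higher among 2-fold genes from 53.4% to 47.8%. No paired analysis was possible because each condition has 1 array. Low signals near the floor limit what can be said of faint genes.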

Other observations

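Imprinted genes, chosen as a group after their values were seen, were mostly lower with TNF on the wild-type arrays. Of 16 above the floor, 15 were lower by some amount (56.9% of all genes were). At least 2-fold lower were 7 (1.98% of all genes were) and 2-fold higher 0 (2.26% of all genes were). The median was -0.74 log2 beside -0.04 over all genes. Plagl1, a zinc finger factor, had signals of 8708 untreated and 2884 with TNF, Peg3 1289 and 440.0, and Mest 4710 and 2033. Cdkn1c, Igf2 and Dlk1 were -1.93, -1.23 and -1.10 log2, while Ndn and Gnas differed by -0.16 and -0.15. On the FAN-deficient arrays 5 of the 16 were 2-fold lower (1.08% of all genes were), with a median of -0.42.

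Solute carriers, also grouped after seeing the values, had 12 of 213 members at least 2-fold higher and 5 lower. The shares over all genes, for this group and those that follow, were 2.26% higher and 1.98% lower. Zinc finger genes with symbols starting Zfp had 0 of 246 members 2-fold higher and 1 lower. Of these, 192 were lower by some amount, beside 56.9% of all 11885 genes, and their median was -0.14 log2 beside -0.04. Ribosomal protein genes had 0 of 50 beyond 2-fold either way.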
